A study of Mus musculus with 24 samples.

Results

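Hmgcs1, Idi1, Fdft1, Sqle and Cyp51 encode enzymes of cholesterol synthesis, and Srebf2 and Insig1 encode proteins that adjust the pathway to the sterol content of the cell. These 7 genes, of 35519 in the files, were chosen by name and by pathway. No cut-off on a measured value was used, but earlier results of these data were known. For each gene, the reads of its transcripts were added up in RNA-seq libraries of microglia, macrophages that live within brain tissue. Each library came from 1000 cells sorted from whole brain of C57BL/6 mice by a gate for CD11b+ Fcrls+ cells without Ly6C, and was made with Smart-Seq2, a full-length method that records neither strand nor molecular identifiers. The 8 groups combined sex (female or male), genotype (WT, the wild type, or NL4-/-, the knockout of neuroligin-4) and state (control or phagocytosis), with 2 libraries in each control group and 4 in each phagocytosis group, 24 in all. Neuroligin-4 is a synaptic adhesion protein, and the NL4-/- mouse is used as a model of autism spectrum disorder. Per the design text the libraries of a group are biological replicates, of which it counts 5 per phagocytosis group; the fifth was not analysed here. Neither the age of the mice nor what the phagocytosis cells took up is given in the sources used here, and the transcript of the deleted gene was not among those quantified, so the knockout was not read.

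Cholesterol is built in the cytosol and endoplasmic reticulum from acetyl-CoA through mevalonate, squalene and lanosterol. When the membrane of the endoplasmic reticulum is poor in sterol, the escort protein Scap carries the precursor of SREBP2, the product of Srebf2, to the Golgi. Proteases there release a transcription factor that turns on the synthesis genes, Insig1 and Srebf2 itself. When sterol is plentiful, Insig proteins hold the complex back, and oxysterols activate the LXR receptors, whose targets export cholesterol. Phagocytes that digest cell debris take in cholesterol through the lysosome, and in the brain cholesterol is made locally because lipoproteins of the blood do not cross its barrier.

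The sequences just upstream of the annotated starts of Hmgcs1 and Srebf2 are shown because both hold the letters TCACCCCA, a match to TCACNCCA, the form of sterol element searched for on both strands. Capitals mark TCACCCCA and, as ATTGG, the reverse complement of CCAAT, the box bound by NF-Y. The sequences are from RefSeq (GRCm38.p6), plus strand of the genome and of the gene, at chr13:119690101-119690350 for Hmgcs1 and chr15:82147019-82147180 for Srebf2. Both windows end before the first annotated exon.
Hmgcs1: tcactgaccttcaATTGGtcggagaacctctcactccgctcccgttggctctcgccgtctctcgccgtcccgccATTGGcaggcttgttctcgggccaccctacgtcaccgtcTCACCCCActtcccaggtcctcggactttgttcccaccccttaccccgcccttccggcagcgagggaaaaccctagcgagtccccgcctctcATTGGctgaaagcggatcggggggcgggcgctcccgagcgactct
Srebf2: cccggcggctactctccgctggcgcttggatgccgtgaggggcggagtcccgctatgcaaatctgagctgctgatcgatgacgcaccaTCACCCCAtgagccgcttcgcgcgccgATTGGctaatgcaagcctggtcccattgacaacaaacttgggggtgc
TCACCCCA begins 137 bases before the RefSeq start of Hmgcs1 and 162 bases before that of Srebf2. RefSeq promoter entries were matched for 5 of the 7 genes; Sqle and Fdft1 had no entry. In the 250 bases before the start, TCACNCCA was found in 2 of these 5 and in 3.67% of 32851 promoters. CCAAT was found on either strand in 5 of 5 and in 33.8% of all promoters, and CACGTG, the E-box, in 1 of 5 (Insig1) and in 6.02%. The motifs were chosen after the sequences had been seen, CACGTG overlaps neither of the others, and a match is a description of letters only.

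The members were weakly expressed. Totals ran from 421107 to 1013797 expected reads per library and 11582 to 15156 genes had a read, so 10 CPM (counts per 1000000 reads, after TMM scaling) stood for about 4 to 10 reads. Transcripts built of the major satellite repeat took over 20% of the reads of 3 control libraries: male NL4-/- control 1, male WT control 2 and female NL4-/- control 1. Srebf2 had 750 reads over the 24 libraries, Fdft1 275, Hmgcs1 251, Cyp51 231, Insig1 202, Sqle 132 and Idi1 50. Read noise alone, at the mean read number, would give Srebf2 a coefficient of variation of 17.9%, and the measured one within groups was 22.7%. For Hmgcs1 the corresponding values were 31% and 28.1%, for Insig1 34.5% and 39.6%, and for Cyp51 32.4% and 50.8%. By mean CPM, 59.7% of the 9803 genes tested lay below Srebf2, but only 23.5% below Fdft1, 21.1% below Hmgcs1, 18.9% below Cyp51, 15.2% below Insig1 and 4.87% below Sqle. Of the 7 genes, 6 passed the filter on low counts, and Idi1 did not. Of 10 microglia markers, 0 were higher on average in phagocytosis libraries: their sum was 32500 to 46400 CPM in controls and 18500 to 44200 in phagocytosis libraries.

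Levels can be compared between genes only per length, for which the deposited TPM were summed per gene. Summed over all its transcripts, Srebf2 stood highest at 15 ± 5.91 TPM (mean ± SD over the 24 libraries), above Hmgcs1 in 20 of 24 libraries. The sums include transcripts annotated as retaining an intron, with 51.6% of the reads of Srebf2 and 34.4% of those of Hmgcs1. In Srebf2 the main one has 1981 bases and the main coding transcript 5077, so its reads weigh more per length. Coding transcripts alone were not ranked, and the order may differ for them. Hmgcs1 was at 8.75 ± 5.44, Fdft1 at 6.17 ± 4.33, Cyp51 at 4.99 ± 2.61, Insig1 at 4.91 ± 2.34, Idi1 at 2.54 ± 2.45 and Sqle at 2.36 ± 1.21 TPM. Hmgcs1 exceeded Fdft1 in 16 libraries, Fdft1 exceeded Cyp51 in 14, Cyp51 exceeded Insig1 in 15, and Idi1 exceeded Sqle in 11. These neighbours lay within the spread of each other. Insig1 exceeded Idi1 in 20 libraries.

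**Figure D1:**
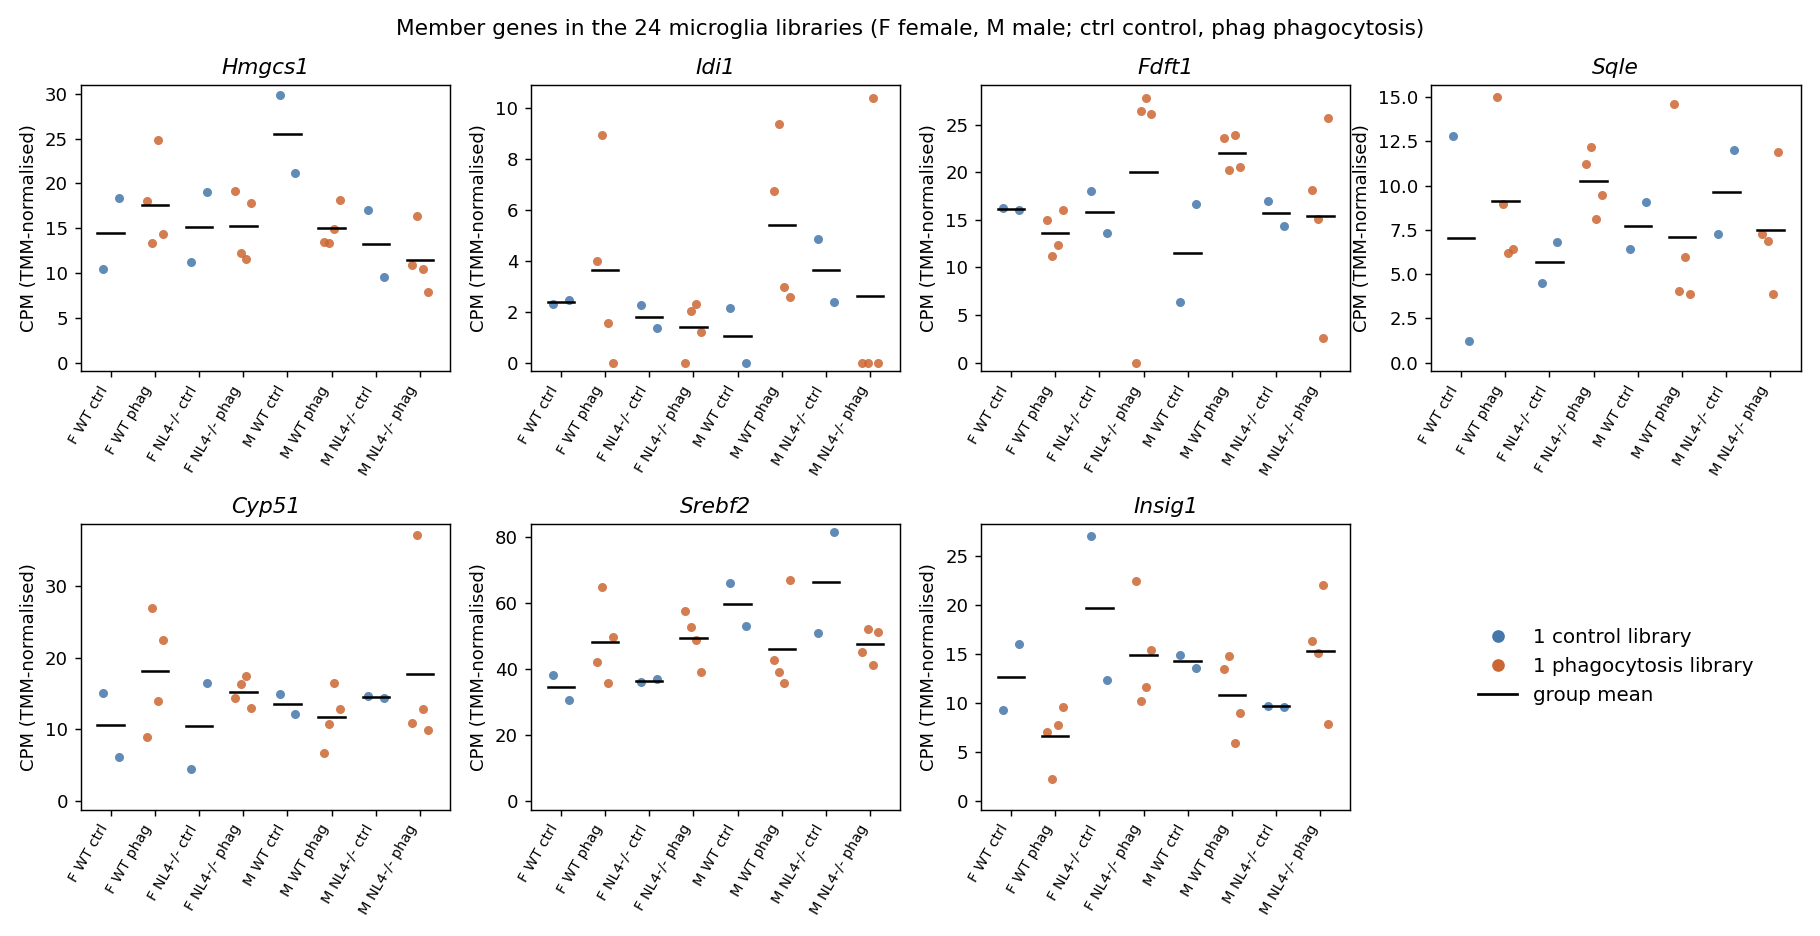
TMM-normalised CPM (vertical axes, each on its own linear scale) of the 7 genes in every library, by sex, genotype and state; points are libraries and black bars are group means. Control and phagocytosis libraries overlap in every gene, and the 4 male control libraries of Srebf2 (51 to 81.5 CPM) lie above the 4 female ones (30.7 to 38.3 CPM).

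Phagocytosis libraries were compared with control libraries over all sexes and genotypes (16 against 8), which asks whether the state moved the pathway. None of the 6 tested members passed: 0 of 6 at an adjusted p under 0.05 by edgeR, 0 of 6 at an unadjusted p under 0.05 and 0 of 6 by DESeq2. Over all genes 13.6% were called in this comparison (824 up and 508 down), 27% had an unadjusted p under 0.05, and DESeq2 called 1408 genes. The members' log2 fold changes ran from -0.22 to 0.31 with a median of 0.09, beside a median of -0.005 over all genes. Within each sex and genotype 0 of 6 passed as well, where the share over all genes was 0.581% for female WT, 0.459% for female NL4-/-, 0.326% for male WT and 0.602% for male NL4-/- mice. In these comparisons 0 of 6 members had an unadjusted p under 0.05 and 0 of 6 passed by DESeq2. Of all genes, in the same order, 12.1%, 9.56%, 8.2% and 10.8% had an unadjusted p under 0.05. DESeq2 called 217, 156, 85 and 151 genes. The members' values ran from -0.85 (Insig1 in female WT) to 0.87. In a bulk library, fewer cells of a type and less RNA per cell cannot be told apart.

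Hmgcs1 encodes the cytosolic HMG-CoA synthase, an early enzyme of the mevalonate pathway. In females it was at 10.5 and 18.4 CPM in WT control, 11.2 and 19.1 in NL4-/- control, 18, 13.4, 24.8 and 14.4 in WT phagocytosis and 19.2, 12.2, 11.6 and 17.8 in NL4-/- phagocytosis. In males it was at 29.9 and 21.2 CPM in WT control, 17 and 9.59 in NL4-/- control, 13.5, 13.4, 14.9 and 18.1 in WT phagocytosis and 10.9, 16.4, 10.4 and 7.90 in NL4-/- phagocytosis. Both male WT controls were above all 4 male WT phagocytosis libraries, while the female groups overlapped. The male WT difference did not pass (log2 fold change -0.75, adjusted p = 0.704), and over all groups the value was -0.17 ± 0.238 (SE; 95% interval -0.66 to 0.32, adjusted p = 0.705). That interval spans 0.634-fold to 1.25-fold.

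Idi1 encodes isopentenyl diphosphate isomerase, which prepares the building blocks of squalene. It had 0 reads in 6 libraries and 8 at most. Of its 50 reads, 10 were counted in controls and 38 in phagocytosis libraries after rounding per library. Relative to the reads in tested genes after TMM scaling, the ratio of phagocytosis to control was 1.64. Its exact 95% interval of 0.80 to 3.68 covers counting error only. Tested without the filter, it had a log2 fold change of 0.56 (adjusted p = 1).

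Fdft1 encodes squalene synthase, the first enzyme committed to sterols, and Sqle encodes squalene epoxidase, which adds the first oxygen. Fdft1 was at 6.40 to 18 CPM in the 8 controls (mean 14.8 ± 3.66 SD) and 0 to 27.8 CPM in the 16 phagocytosis libraries (17.8 ± 8.28). Its log2 fold change was 0.24 ± 0.352 (SE; interval -0.48 to 0.96, adjusted p = 0.721). Sqle was at 1.23 to 12.8 CPM in controls and 3.87 to 15 CPM in phagocytosis libraries, with a value of 0.17 ± 0.408 (interval -0.66 to 1.01, adjusted p = 0.845). For both genes the ranges of the states overlapped, and for Sqle the interval reached from 0.632-fold to 2.01-fold.

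The reads of Fdft1 carry a further limit. The last 774 bases of its 3' exon on chromosome 14 (63145150 to 63145923, GRCm38) lie on the opposite strand of an exon of Ctsb, the gene of the lysosomal protease cathepsin B. Without strand, reads from the shared stretch cannot be told apart. Ctsb was at 3360 ± 486 CPM in controls and 6740 ± 902 in phagocytosis libraries with no overlap between the states, and its part in the Fdft1 values was not tested. Cyp51 shares 166 bases with an exon of Akap9 in the same way (chromosome 5, 4081145 to 4081310), at 157 ± 39 CPM of Akap9 in controls and 113 ± 16.8 in phagocytosis libraries.

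Cyp51 encodes lanosterol demethylase, an early step after the sterol rings are closed. In females it was at 15.1 and 6.14 CPM in WT control, 4.50 and 16.4 in NL4-/- control, 9.02, 26.9, 14 and 22.4 in WT phagocytosis and 14.4, 16.3, 17.4 and 13 in NL4-/- phagocytosis. In males it was at 14.9 and 12.1 CPM in WT control, 14.6 and 14.4 in NL4-/- control, 6.75, 10.7, 16.4 and 12.9 in WT phagocytosis and 10.9, 37, 12.9 and 9.88 in NL4-/- phagocytosis. The highest library was male NL4-/- phagocytosis 2, and the states overlapped. The log2 fold change between the states was 0.31 ± 0.309 (SE; interval -0.32 to 0.95, adjusted p = 0.563).

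**Figure D2:**
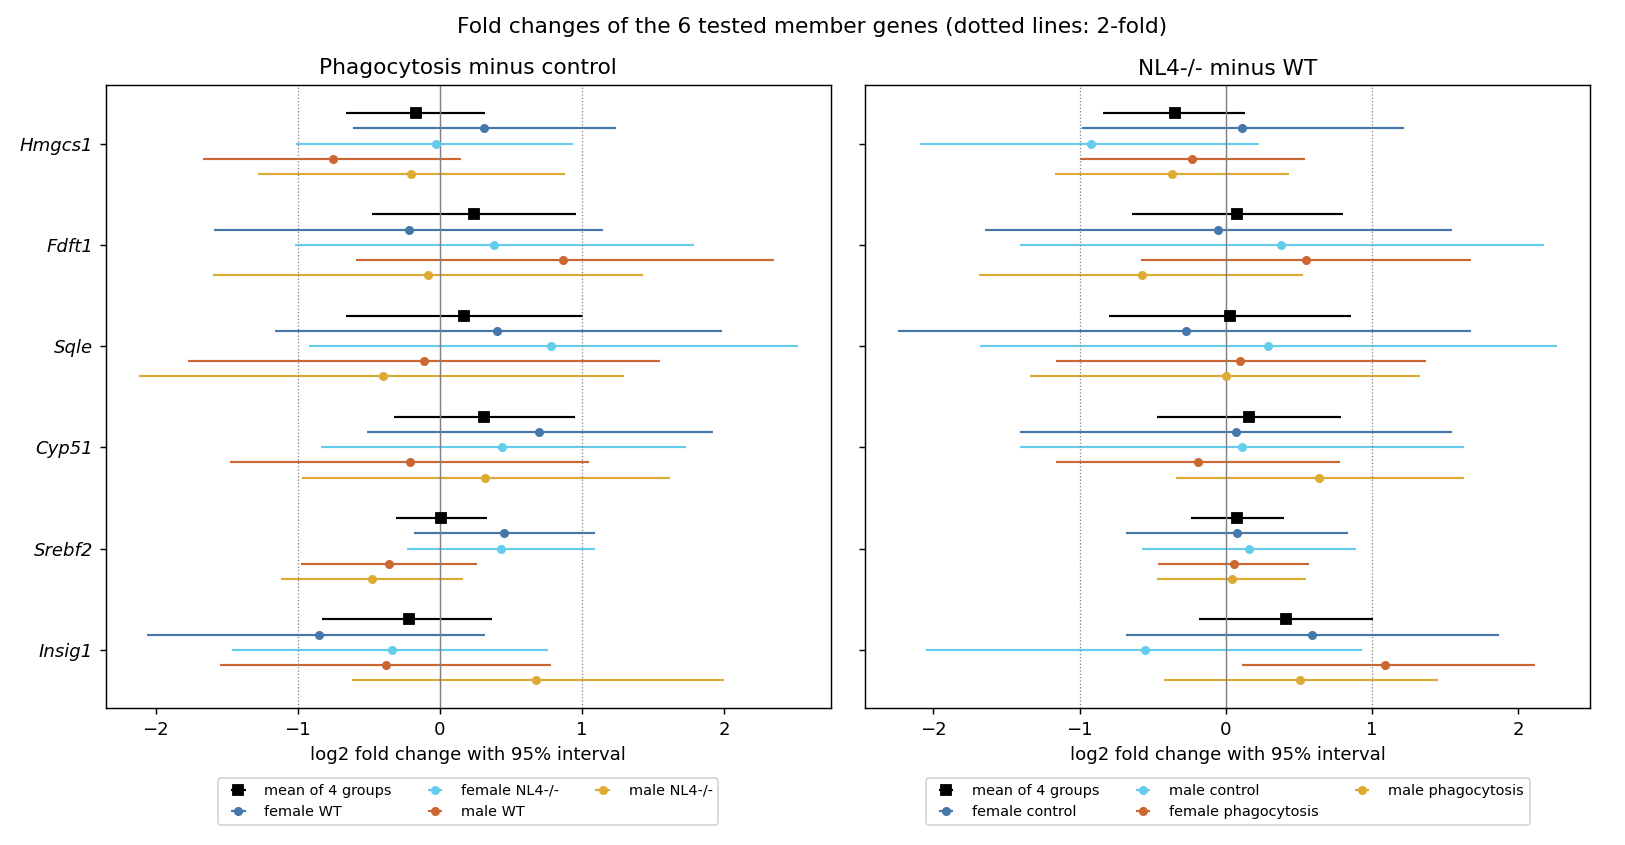
Log2 fold changes (horizontal axes, points) with 95% intervals (bars) of the 6 tested genes, for phagocytosis against control on the left and NL4-/- against WT on the right; black squares are the mean of 4 groups and coloured points the single groups. All intervals for the means of 4 groups include 0, and of the single groups 1 does not, Insig1 in female phagocytosis (0.11 to 2.12).

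Srebf2 encodes SREBP2, the transcription factor that turns on the synthesis enzymes. In females it was at 38.3 and 30.7 CPM in WT control, 36.0 and 36.9 in NL4-/- control, 42.1, 64.9, 35.7 and 49.7 in WT phagocytosis and 57.6, 52.9, 48.7 and 39.1 in NL4-/- phagocytosis. In males it was at 66.2 and 53 CPM in WT control, 51 and 81.5 in NL4-/- control, 42.8, 39, 35.8 and 67.1 in WT phagocytosis and 45.3, 52.1, 41.4 and 51.4 in NL4-/- phagocytosis. The 4 male controls were all above the 4 female controls, whereas the phagocytosis libraries of the sexes overlapped. Averaged over all groups the states differed by 0.01 ± 0.156 on the log2 scale (SE; interval -0.31 to 0.33, adjusted p = 0.98), or 0.808-fold to 1.26-fold, the narrowest interval among the members.

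That mean joined values of opposite sign. The difference between the states was 0.45 in female WT and 0.43 in female NL4-/-, but -0.36 in male WT and -0.48 in male NL4-/-. A contrast of the male with the female difference, chosen after these values were seen, gave -0.86 ± 0.313 (SE; interval -1.50 to -0.23, unadjusted p = 0.00985, adjusted p = 1 by edgeR over all genes). Male against female controls gave 0.82 ± 0.258 (interval 0.29 to 1.35, unadjusted p = 0.00352, adjusted p = 1), and male against female phagocytosis libraries -0.04. Neither contrast passed, and 1 of 6 members, Srebf2, had an unadjusted p under 0.05 in each of the first pair. Over all genes 0% were called for the state by sex contrast (190 genes at an unadjusted p under 0.05, and 1 gene by DESeq2). For sex in control 0.0306% were called (263 genes at an unadjusted p under 0.05, and 11 by DESeq2). For sex in phagocytosis 0.0408% were called (467 genes at an unadjusted p under 0.05, and 7 by DESeq2). In each, 0 of 6 members were called by edgeR or DESeq2. The share of satellite-like reads was over 20% in 2 of the 4 male and 1 of the 4 female controls. Without these 3 libraries the state by sex value was -1.068 and that of sex in control 1.032.

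Insig1 encodes the membrane protein that retains Scap and the SREBP2 precursor in the endoplasmic reticulum when sterol is present. In females it was at 9.29 and 16 CPM in WT control, 27 and 12.3 in NL4-/- control, 7.02, 2.24, 7.76 and 9.62 in WT phagocytosis and 22.4, 10.2, 11.6 and 15.4 in NL4-/- phagocytosis. In males it was at 14.9 and 13.6 CPM in WT control, 9.71 and 9.59 in NL4-/- control, 13.5, 14.8, 5.96 and 9.03 in WT phagocytosis and 16.3, 15.1, 22 and 7.90 in NL4-/- phagocytosis. The 4 female NL4-/- phagocytosis libraries were all above the 4 female WT ones, while the male groups overlapped. Over all groups the states differed by -0.22 ± 0.293 (SE; interval -0.83 to 0.37, adjusted p = 0.673), and in female WT by -0.85 (adjusted p = 0.583).

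NL4-/- libraries were then compared with WT libraries, which asks whether loss of neuroligin-4 altered the pathway. Over the 4 sex and state groups 0 of 6 members passed and 0% of all genes were called by edgeR, with 438 genes at an unadjusted p under 0.05 and 15 called by DESeq2, none of them a member. The members' log2 fold changes were -0.35 for Hmgcs1, 0.03 for Sqle, 0.08 for Fdft1, 0.16 for Cyp51, 0.08 for Srebf2 and 0.41 for Insig1, each with an adjusted p of 1. Their 95% intervals reached from -0.84 to 1.01.

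Within a sex and state, Insig1 had the largest genotype difference of the 6 tested members. In female phagocytosis libraries it was higher in NL4-/- by 1.09 ± 0.493 on the log2 scale (SE; interval 0.11 to 2.12, 1.08-fold to 4.36-fold), with an unadjusted p of 0.0299 and an adjusted p of 0.946, so it did not pass. This was the only member under an unadjusted 0.05 in the genotype comparisons, where 510 of 9803 genes were so in the same comparison, and 0% of all genes were called. With 1 library left out the value stayed between 0.83 and 1.277. In male phagocytosis libraries Insig1 had 0.51 (adjusted p = 1), and the male value minus the female one was -0.59 (adjusted p = 0.997), so a difference between the sexes did not pass either. The contrast of the state differences of the genotypes gave 0.78 for Insig1 (adjusted p = 1).

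The other genotype values within groups were as uncertain. Hmgcs1 had -0.92 in male control (adjusted p = 1), from 2 libraries on each side. Cyp51 had 0.64 in male phagocytosis (adjusted p = 1), and -0.029 without male NL4-/- phagocytosis 2. Fdft1 was at 23.6, 20.2, 23.9 and 20.6 CPM in male WT phagocytosis and 18.1, 15.1, 2.59 and 25.7 in male NL4-/- phagocytosis, against 15, 11.2, 12.4 and 16 in female WT and 0, 26.4, 27.8 and 26.1 in female NL4-/- phagocytosis. Its NL4-/- libraries thus held both the highest and the lowest values, and the male minus the female genotype difference was -1.12 (adjusted p = 0.993). In each of the genotype comparisons of female control, male control and male phagocytosis, and in the state by genotype and genotype by sex contrasts, 0 of 6 members and 0% of all genes were called by edgeR. Genes at an unadjusted p under 0.05 numbered 210, 328, 465, 276 and 467 in that order, none of them a member, and DESeq2 called 4, 5, 0, 1 and 2 genes, none of them a member.

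Correlations between members across the 24 libraries were low and of both signs. Over their 15 pairs (without Idi1), the Pearson correlation of log2 CPM ran from -0.41 for Cyp51 with Insig1 to 0.42 for Cyp51 with Srebf2. It was -0.02 for Hmgcs1 with Srebf2, the pair with a match to TCACNCCA among the 5 promoters searched. These are descriptions over libraries that share groups and depth. Read noise arises separately in each gene and weakens a correlation. For Hmgcs1 and Insig1 it was near the whole measured spread, so the values cannot show whether the members vary together. The genes whose log2 CPM followed the mean of the standardised members most closely, of 9243 compared, were Sulf2 (r = 0.68), Foxk2 (0.67), Slx4ip (0.61), Thy1 (0.59) and Smurf2 (0.58). They are the largest of 9243 values from 24 libraries. How high the largest would run by chance was not tested, so the list is a description only.

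Part of the members' reads was assigned to transcripts annotated as retaining an intron, which are not translated into the enzyme. These took 51.6% of the reads of Srebf2, 40.0% of Sqle, 34.4% of Hmgcs1, 3.35% of Cyp51, 1.99% of Idi1, 0.761% of Insig1 and 0 of Fdft1. In Srebf2 most of them lay in 1 transcript, Srebf2-205, with 46.8% of the gene's reads, more than the 43.0% of the main coding transcript Srebf2-201. The share of Srebf2-205 was 49.2% ± 13.4 (SD, n = 8) in controls and 45.3% ± 13.7 (n = 16) in phagocytosis libraries, from 28.9 to 67.3% and from 11.7 to 66.9%, so the states overlapped. The order of the sexes in control was the same in both kinds of Srebf2 transcript: those retaining an intron were at 19.9 ± 2.76 CPM in female and 33.9 ± 15 in male controls (n = 4 each), and the others at 15.8 ± 4.17 and 29.7 ± 10.6 CPM. How reads were divided among transcripts is the quantifier's estimate.

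**Figure D3:**
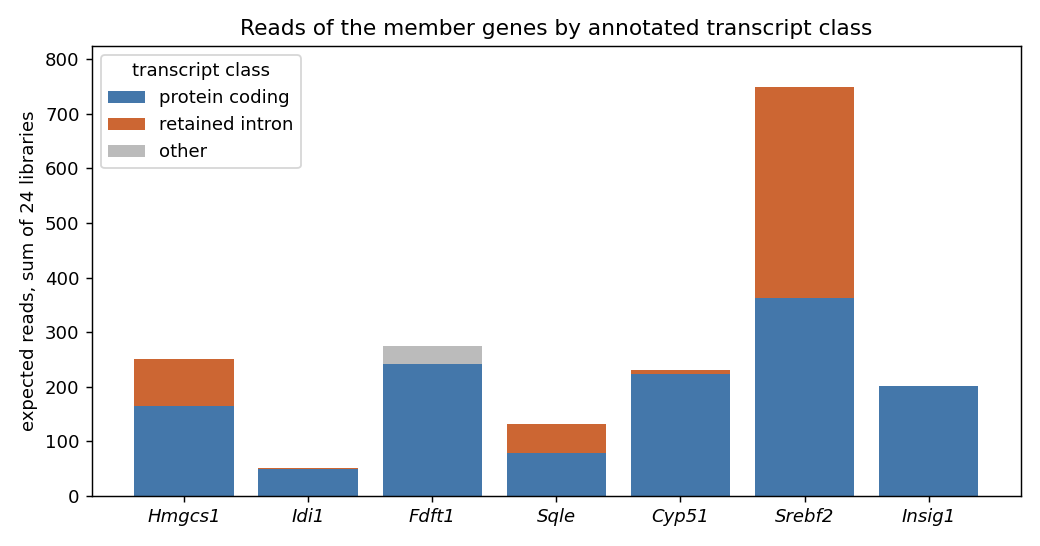
Expected reads of each gene (vertical axis, sum over the 24 libraries) by annotated transcript class, stacked; "other" is nonsense-mediated decay or a processed transcript. Intron-retaining transcripts take 386.8 of the reads of Srebf2, 86.5 of Hmgcs1 and 52.7 of Sqle.

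Other genes of sterol metabolism were read from 8 lists, 72 tested genes beside the members, some of them in more than 1 list. Among the enzymes from acetyl-CoA to squalene epoxide and lanosterol, 0 of 10 tested passed between the states (median log2 fold change 0.10). Pmvk, a mevalonate pathway kinase, was at 16.7 ± 4.89 CPM in controls and 19.3 ± 7.36 in phagocytosis libraries (0.25, adjusted p = 0.592). Of the enzymes from lanosterol to cholesterol 0 of 9 passed (median -0.05). The pair of sterol reductases with the smallest p were Lbr, at 34.5 ± 7.18 and 23.5 ± 7.32 CPM (-0.56, adjusted p = 0.0551), and Tm7sf2, at 17.3 ± 6.98 and 11.7 ± 4.40 CPM (-0.52, adjusted p = 0.217). Lbr passed without female NL4-/- phagocytosis 4 (-0.603, adjusted p = 0.0374) or without male WT phagocytosis 4 (-0.582, adjusted p = 0.0438).

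Of the genes of SREBP processing and sterol-regulated protein degradation, 0 of 14 passed (median -0.15). Rnf139, a ubiquitin ligase gene of the endoplasmic reticulum, had -0.75 (adjusted p = 0.0834), and -0.943 without female WT phagocytosis 1 (adjusted p = 0.0256), -1.149 with phagocytosis numbers 3 and 4 only (adjusted p = 0.0149) and -0.388 without the 3 satellite-rich controls (adjusted p = 0.657). Srebf1, which encodes the related factor SREBP1, had 0.33 (adjusted p = 0.21), and Insig2, the second Insig gene, had -0.34 (adjusted p = 0.371). Of the isoprenoid branch, which leaves the pathway before squalene, 0 of 11 passed (median 0.04), with Coq2 of ubiquinone synthesis at -0.47 (adjusted p = 0.236) and Nus1 of dolichol synthesis at 0.53 (adjusted p = 0.296). In these 4 lists 0 of 44 genes thus passed, counting the members. The 4 lists pooled here are those without a call, so the count of 0 follows from the grouping. It is not a fair comparison with the 13.6% of all genes named above. Genes of similar expression were not compared either, so whether synthesis genes responded less than other genes was not tested.

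In the other 4 lists 8 genes passed. They are 11.1% of the 72 genes beside the members in all 8 lists, where 13.6% of all genes were called. The count within each of these 4 lists is given with it below. In the list of LXR receptors and targets, which also held the cholesterol ester genes Nceh1 and Soat1, 4 of 11 tested genes rose and 0 fell (median 0.33). Whether LXR acted on them was not tested. Nceh1, a cholesterol ester hydrolase, was at 20.3 ± 5.17 CPM in controls and rose to 56.6 ± 19 (log2 fold change 1.48, adjusted p = 4.1e-05). Apoe, the lipoprotein that carries exported cholesterol in the brain, rose from 557 ± 197 to 1330 ± 874 CPM (1.28, adjusted p = 0.0116). The exporter Abca1 rose from 211 ± 44.9 to 304 ± 77.9 CPM (0.54, adjusted p = 0.0138) and Soat1, which esterifies cholesterol for storage, from 131 ± 36.1 to 175 ± 28.8 CPM (0.44, adjusted p = 0.0144).

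Of the oxysterol genes 1 of 8 rose and 1 fell (median -0.12). Ch25h, which makes 25-hydroxycholesterol, rose from 49.9 ± 27.2 to 473 ± 265 CPM (3.34, adjusted p = 8.79e-05), with 25.7 to 107 CPM in controls and 98.4 to 942 in phagocytosis libraries. Cyp27a1, which makes 27-hydroxycholesterol, fell to 40.7 ± 17 from 71.7 ± 13.6 CPM (-0.82, adjusted p = 0.011). Of the genes of sterol uptake and exit from the lysosome 1 of 10 rose (median -0.01). It was Npc2, which passes cholesterol out of the lysosome, from 467 ± 53.7 to 677 ± 119 CPM (0.54, adjusted p = 0.00126). Of the fatty acid genes that SREBP1 drives 1 of 8 rose (median 0.07), the fatty acid synthase gene Fasn, from 50 ± 9.49 to 74.6 ± 24.7 CPM (0.56, adjusted p = 0.0475). Of these 8 calls, those of Nceh1, Ch25h and Npc2 held in all 32 alternative settings. Without the 3 satellite-rich controls, Apoe had 1.142 (adjusted p = 0.164), Abca1 0.651 (0.0583), Soat1 0.424 (0.125), Cyp27a1 -0.734 (0.151) and Fasn 0.542 (0.249). Leaving out 1 library also ended the call of Soat1 (0.393 without female NL4-/- control 1, adjusted p = 0.0557) and of Cyp27a1 (-0.721 without female WT control 2, adjusted p = 0.0564, and -0.699 without male WT control 2, adjusted p = 0.0651). For Fasn it did so with 13 of 24 libraries (0.486 to 0.626, adjusted p = 0.0544 to 0.148). With phagocytosis numbers 3 and 4 only, Abca1 had 0.358 (adjusted p = 0.0801), Soat1 0.295 (0.185), Cyp27a1 -0.468 (0.139) and Fasn 0.37 (0.179). With length-scaled TPM counts, Cyp27a1 had -0.67 (adjusted p = 0.0927) and Fasn 0.059 (0.947). None of the 72 genes passed in the other comparisons of state, genotype and sex by edgeR.

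**Figure D4:**
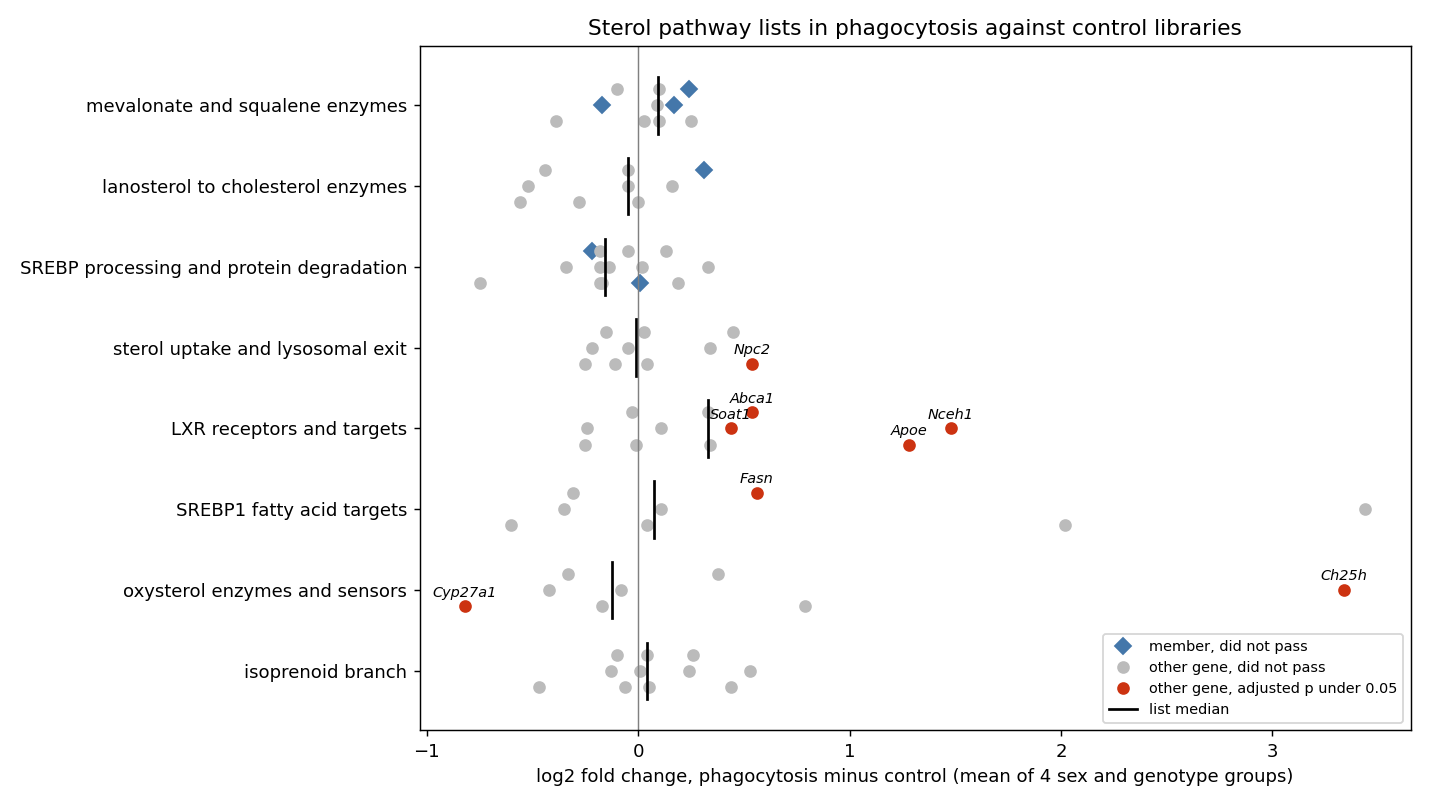
Log2 fold change between phagocytosis and control libraries (horizontal axis, mean of 4 sex and genotype groups) for the tested genes of each list; diamonds are the member genes, red points passed an adjusted p of 0.05 and black bars are list medians. The 2 grey points at the right of the fatty acid list are Fads2 and Me1, which had 7 and 2 reads in all controls.

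Markers of other cells are given because other brain cells also make cholesterol. Their sums are CPM scaled to the library total, without TMM, and were not tested between the states. Oligodendrocyte markers summed to 123 to 191 CPM in controls and 170 to 371 in phagocytosis libraries, with 5 of 10 higher on average and Mog, Cldn11, Mal, Opalin and Ermn at 0 in at least 12 of 24 libraries. Astrocyte markers summed to 57.2 to 141 (median 102) and 73.0 to 145 CPM (median 101) (9 of 10 higher), with Aqp4, S100b, Sox9 and Gjb6 at 0 in as many. Neuron markers summed to 4.36 to 13.4 and 12.6 to 107 CPM (9 of 10 higher), with 6 of 10 at 0 in as many. Border-associated macrophage markers summed to 19.9 to 60.1 and 73.8 to 410 CPM (10 of 10 higher), and monocyte markers to 20.1 to 78.0 and 24.8 to 221 CPM (8 of 8 higher). Endothelial markers summed to 330 to 747 and 545 to 741 CPM (6 of 8 higher). The part of these cells in the values of the members and of the 8 genes that passed was not tested.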

How the data were processed

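RNA was measured in 24 Smart-Seq2 libraries of sorted mouse microglia, grouped by the sex, genotype and state in the labels. Per the file headers, the deposited tables list 116945 transcripts, each with its length and effective length, the authors' expected count of reads (not normalised, not always whole) and a TPM, in the layout that salmon writes. Neither the version of the quantifier nor its index is given in the sources used here. Of the transcripts, 116023 matched GENCODE vM21 (GRCm38), and 922 did not; these were dropped, with 0.274 to 0.379% of the reads per library. Expected counts were then summed per gene and rounded. The authors' TPM were summed per gene for levels, and with the deposited effective lengths gave length-scaled counts for an alternative.

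All 24 libraries entered 1 edgeR 4.0.16 fit (quasi-likelihood F test, robust, TMM, 8 group means, no covariate), after edgeR's expression filter (minimum count 10, by group), which kept 9803 genes. P-values were two-sided and adjusted by Benjamini-Hochberg over these genes in each of 15 comparisons, and called under 0.05. The log2 fold changes have a prior count of 0.125. SE and 95% intervals are Wald values from the fit. DESeq2 1.42.0 was an alternative. The script was tested on simulated data. CPM are TMM-normalised. The interval of the Idi1 read ratio covers counting error only, since amplified reads without molecular identifiers are not independent molecules; the Wald intervals also hold the spread between libraries.

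The named genes are the 7 members, up to 4 genes of each list that passed between the states, or the 2 with the smallest p where none did, Insig2, and the 5 genes most alike in pattern (log2 CPM with a prior count of 2). Ctsb, Akap9, Fads2 and Me1 were named after their values were seen. The members and the lists were chosen with earlier results of these data known. Some genes that the rule would name are not reported here.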

Additional observations from a re-analysis of the deposited data

Results flagged for a closer look

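In groups of 4 phagocytosis libraries, 28 gene and group combinations were checked for a library far from the other ones by Dixon's ratio of gap to range, and 3 passed its 95% critical value. By chance about 1 in 20 groups would. Idi1 was at 10.4 CPM in male NL4-/- phagocytosis 3 and at 0 in the other 3 libraries of that group. Fdft1 was at 0 CPM in female NL4-/- phagocytosis 1, with the nearest library at 26.1 CPM. Cyp51 was at 37.0 CPM in male NL4-/- phagocytosis 2, with the nearest library at 12.9 CPM.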

How the results depend on the processing

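In all 15 comparisons 0 of the members tested passed under each alternative run (DESeq2 size factors, DESeq2, no filter on low counts, the replicate number as a block, length-scaled TPM counts, each library left out, and for comparisons of state also without the 3 satellite-rich controls or with phagocytosis numbers 3 and 4 or 1 and 2 only). Sqle failed the filter on low counts, and was not tested, in 12 of 24 fits with 1 library left out, with length-scaled TPM counts and with either pair of phagocytosis numbers. The smallest adjusted p of a member over these settings was 0.285. The values whose sign turned are these. The Srebf2 difference between the states, 0.012, was -0.139 with length-scaled TPM counts, -0.095 without the satellite-rich controls, -0.031 with phagocytosis numbers 3 and 4 only, and -0.045 to 0.149 with 1 library left out. With 1 library left out, the genotype values averaged over groups ran from -0.079 to 0.105 for Sqle (12 fits; 24 for each of the others), -0.041 to 0.297 for Fdft1, -0.175 to 0.344 for Cyp51 and -0.023 to 0.152 for Srebf2. Likewise Cyp51 in male phagocytosis ran from -0.029 to 0.832. The causes were not tested.

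Over all genes, 1332 were called between the states. The count was 410 (389 shared with the 1332) without the satellite-rich controls, 782 (697 shared) with phagocytosis numbers 3 and 4 only, and 781 to 1508 with 1 library left out, lowest without female WT control 2. Where a control group was left with 1 library, that library was assumed to vary like the other groups. With phagocytosis numbers 1 and 2 only, 1772 genes were called between the states (1153 shared), more than with numbers 3 and 4 only. Correlations between same-numbered libraries were -0.141 to 0.176 over 68 pairs (median 0.00401). Between libraries of different numbers they were -0.171 to 0.206 over 180 pairs (median -0.000476), so the ranges overlapped. Of 24 libraries, 6 correlated best with their own number. A difference between the numbers was not tested gene by gene. With the replicate block 1646 genes were called between the states, 293 in female WT against 57, 104 in female NL4-/- against 45, 61 in male WT against 32 and 167 in male NL4-/- against 59. The block called 0 of 6 members in these, and Srebf2 then had 0.057. Sqle and Idi1 had 5.5 and 2 reads per library on average, and what limited precision was not separated into depth and spread between libraries.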
